A study of Rattus norvegicus with 2 samples.

Results

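Forkhead transcription factors were measured in hypothalamic RNA of Wistar Kyoto (WKY) rats of both sexes. The members were the probes, apart from controls, that the deposited scanner files name Fox with a letter from a to s and a number. These were 34 genes on 44 probes and 80 spots, of 26320 genes and other targets on 30367 probes and 42877 spots. Wistar Kyoto is an inbred rat strain that is widely used as the normotensive control of hypertensive rats. Both groups were adults of that strain aged 9 weeks with free access to food and water, and no treatment is named for either. The male group was 1 pool of RNA from 5 males and the female group 1 pool of RNA from 5 females, with 100 ng from each rat. From each pool 150 ng was labelled with the dye Cy3 and hybridised to 1 Agilent array. Pooling leaves the spread between rats unmeasured, and with 1 array per sex no test of a difference between the sexes could be made.

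Forkhead proteins share a winged-helix domain that binds DNA, and they act as regulators of gene expression in development and in adult tissue. In the brain and its coverings the members mark different cells. Foxc1 and Foxc2 are made in the meninges and in cells around blood vessels, Foxj1 drives the formation of motile cilia in ependymal cells, and Foxa1 and Foxa2 specify and maintain dopamine neurons of the ventral midbrain. Foxb1 is a gene of the mammillary region of the hypothalamus, and Foxp1, Foxp2 and Foxp4 of several kinds of neurons. The FoxO proteins are held out of the nucleus by insulin signalling, and in the hypothalamus Foxo1 acts on the feeding genes Agrp and Pomc.

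The results turned on few probes, each 60 bases long in the deposited files. The first 30 bases of these are shown because a value of an array is the value of its probe, and because probes of the same gene gave different answers for Foxa1, Foxb1 and Foxp2. No base is singled out, so all letters are in lower case.
Foxc1: tgtcaatcagacttggggagatggcggttt
Foxc2: ctttgtacagtagacgccatttggagtatt
Foxa2: tatggtttctgcgtgctttatttatggctt
Foxa1, transcript position 1398: gccctggagccggcctactaccaaggtgtg
Foxa1, transcript position 1985: acttctgacttttgagaccacatcttaata
Foxb1, transcript position 1596: gggggaagttaatcgggatgttaactttct
Foxb1, transcript position 419: aatctccatggccagtggcgactacagcgc
Foxp2, transcript position 7274: atgcttccgtactagagacaagtcataagg
Foxp2, transcript position 2397: tttagtaaaaaacatccccacaagtttggg
In the rat build rn4 named by the files, the Foxc1 probe lies at chr17:39026324-39026383 and the Foxa2 probe at chr3:136739040-136739099, both on the minus strand. The Foxa1 probes lie at chr6:78005464-78005523 and chr6:77976521-77976580, 28883 bases apart and both on the minus strand. The files give no position for the probes of Foxc2 and Foxj1. Whether a probe lies in coding sequence or in a UTR was not analysed here.

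A level is the log2 of the processed intensity of a spot relative to the 75th percentile of its array, which was 3769 in males and 2943 in females. The same intensity therefore stands for a higher level in females. A gene was measured where over 50% of the spots of at least 1 of its probes were well above background on both arrays. This held for 29 of the 34 members, or 85.3%, and for 20655 of all genes, or 78.5%. All differences are female minus male on the log2 scale, and "in males" and "in females" stand for the 1 pool of each sex. The error given with a difference is a technical SD. For a probe with 10 spots it is the SD over those spots, and for others it comes from repeated probes of like signal. For a gene mean over several probes it is the SD of that mean, from repeated probes of like signal. In 4 groups by signal the technical SD of a spot ran from 0.15 for the dimmest spots to 0.053 for the brightest. The error leaves out rats, pooling, labelling and hybridisation. Spots far from the other spots of their probe crowded into bands of slide rows, where 4.64% of repeated spots were far against 0.813% outside. Of the measured members, 7 rested only on spots in these bands and are marked (band). For the tissue check, the hypothalamic genes Pomc and Agrp were well above background in both pools, at levels of 2.99 and 0.36 in males and 2.71 and 0.063 in females (Pomc and Agrp both band).

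Most forkhead genes lay within 1.5-fold in the pools, as did most genes of the array. Of the 29 measured members, 26 lay within 1.5-fold, 2 were at least 1.5-fold higher in females (Foxc1 and Foxc2) and 1 was at least 1.5-fold higher in males (Foxa1). Over all genes measured, 97.6% lay within 1.5-fold, 1.55% were at least 1.5-fold higher in females and 0.842% in males. At 2-fold, 1 member was higher in females, against 0.508% of all genes, and 0 in males, against 0.339%. No sample was replicated, so no tool gave a p-value behind these counts. The median difference of the members was 0.016, close to 0.00011 over all genes, and it turned to -0.051 when the arrays were scaled on spike-in spots and to -0.0026 with quantile normalization. In size, the members differed by a median of 0.17 and all genes by a median of 0.092. Of the members, 14 rested on 1 spot of the dimmest signal group, and the part of dim signal in that size was not tested. Of the members 16 were higher and 13 lower in females, where 50% of all genes were higher. In a pool of tissue RNA, fewer cells of a type and less RNA per cell cannot be told apart.

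**Figure D1:**
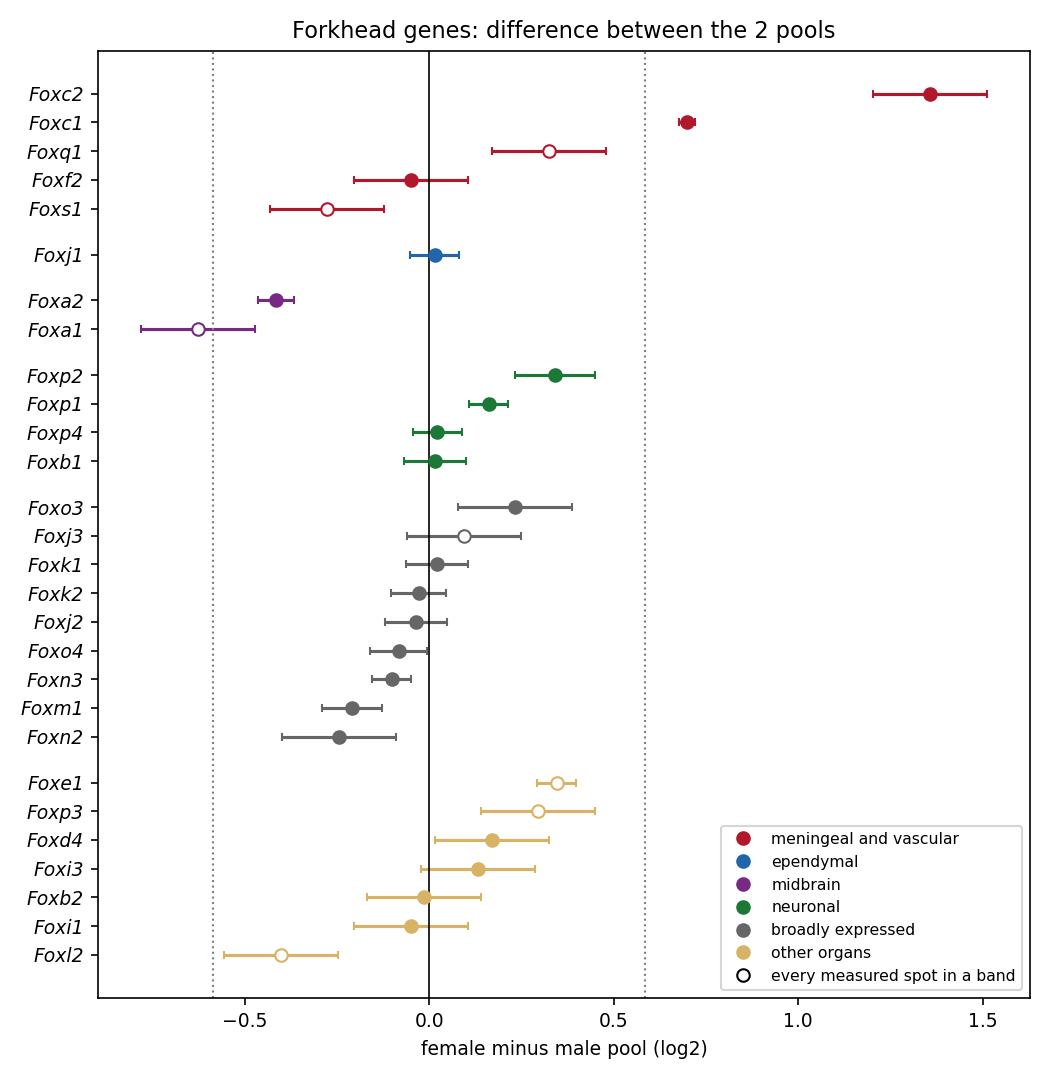
Difference between the pools for 28 of the 29 measured forkhead genes, female minus male on the log2 scale (horizontal axis), grouped and coloured by role. Points are gene values, and bars are the technical SD of the gene mean over its spots and probes, from repeated probes of like signal. For Foxc1 and Foxa2 these bars, of 0.021 and 0.049, are thus shorter than the SD over spots in the text. Open points are genes measured only in bands of slide rows, and dotted lines mark 1.5-fold. Foxc2 and Foxc1 lie beyond the line on the female side and Foxa1 beyond it on the male side.

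The members of the meninges and of cells around vessels held the largest differences towards the female pool. Foxc1, needed for the meninges and the skull bones over them to form, had 10 spots. Its intensity ran from 519 over a median of 565 to 599 in males and from 675 over 715 to 773 in females. Every spot was higher in females, and the spots of the pools did not overlap. These are repeats on 1 array per pool, and how many repeated probes of the array likewise did not overlap was not counted. The level of Foxc1 was -2.74 in males and -2.04 in females, a difference of 0.70 ± 0.071 (SD, n = 10 spots), or 1.62-fold. The difference at single spots ran from 0.56 to 0.79, and 98.3% of all genes differed by less. Foxc2, the closest relative of Foxc1 and also a regulator of lymphatic vessels, had 1 spot, with an intensity of 65.8 in males and 132 in females. Its levels of -5.84 and -4.48 differed by 1.36 ± 0.15, or 2.57-fold, more than 99.6% of all genes did. This dim spot lay outside the bands. With another background correction (normexp with an offset of 50) Foxc2 differed by 0.95 and no longer reached 2-fold.

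The other genes of that role differed by less, and in both directions. Foxf2, a factor of brain pericytes, had an intensity of 57.8 in males and 43.7 in females. Its levels of -6.03 and -6.07 differed by -0.049 ± 0.15, and with normexp by 0.19. Foxq1 (band), made in brain endothelium, had an intensity of 138 in males and 136 in females, and its level was 0.32 ± 0.15 higher in females. Foxs1 (band), a factor of pericytes and smooth muscle, had an intensity of 313 in males and 202 in females, and its level differed by -0.28 ± 0.15, or by -0.098 with normexp. The median over these 5 genes was 0.32, with 3 higher and 2 lower in females, and it was 0.72 over the genes left without the bands. Foxc1, Foxf2 and Foxq1 are direct neighbours, with 0 other protein-coding genes between them in the RefSeq gene order of the assembly GRCr8. In rn4 the probe of Foxf2 lies 231923 bases from that of Foxc1 and 74800 bases from that of Foxq1. The neighbours thus gave differences of 0.70, -0.049 and 0.32.

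Markers of meningeal cells and fibroblasts were likewise higher in females. All 21 markers measured of 24 listed were higher in females, 14 of them at least 1.5-fold and 8 at least 2-fold, and their median difference was 0.71. Their summed level, in units of the 75th percentile of the array, was 12.8 in males and 19.5 in females. The largest differences were those of the retinoic acid enzyme gene Aldh1a2 (band), at 1.92, and of the transporter genes Slc47a1 (band) and Slc22a6 (band), at 1.39 and 1.34. Markers of mural cells and endothelium did not share that direction. Of 17 listed and measured, 8 were higher and 9 lower in females, with a median of -0.0043 and a summed level of 9.02 in males and 8.56 in females. With normexp their median was 0.047 and without the bands 0.077. The largest differences were 0.53 for Cnn1 (band), 0.50 for Abcc9 (band) and -0.47 for Notch3 (band), genes of smooth muscle and pericytes. The meningeal list was known from an earlier look at these arrays to be higher in females and is not independent evidence of that direction. The part of meningeal cells in the differences of Foxc1 and Foxc2 was not tested.

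**Figure D2:**
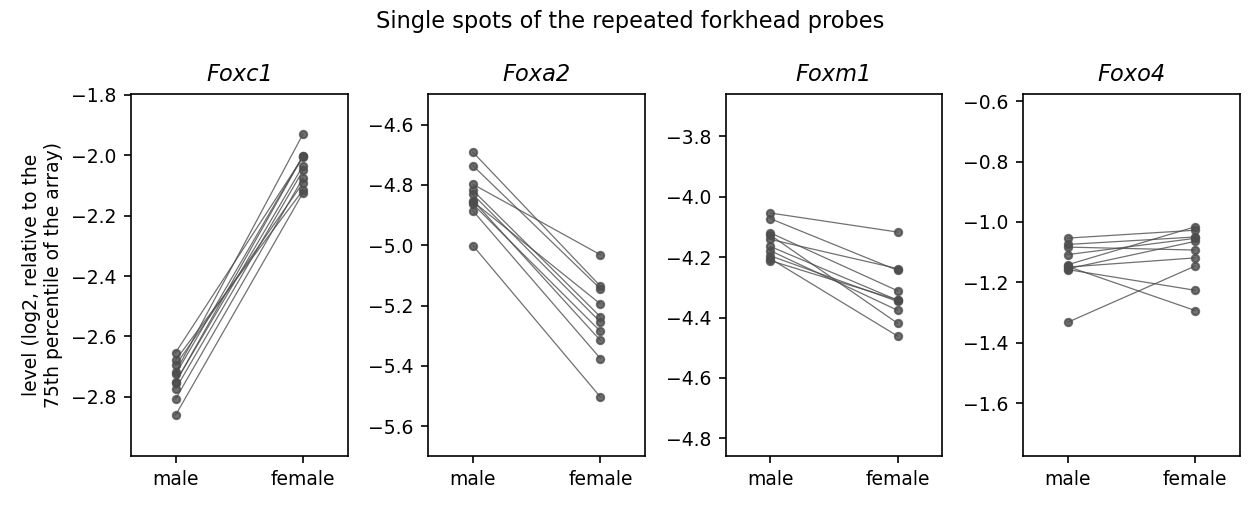
Level of every single spot of the 4 forkhead probes spotted 10 times, in the male and the female pool (log2, relative to the 75th percentile of the array), with a line joining the same spot position on both arrays. All 10 spots of Foxc1 were higher in females, all 10 of Foxa2 and of Foxm1 were lower, and 7 of 10 of Foxo4 were higher.

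Foxj1, the master regulator of motile cilia, was nearly equal in the pools. Its 1 spot had an intensity of 1965 in males and 1551 in females, and its levels of -0.94 and -0.92 differed by 0.015 ± 0.066. Scaled on spike-in spots the difference was -0.052. Genes of the motile cilium, among them dynein arms and radial spokes, did likewise. Of 34 listed, 24 were measured, 15 higher and 9 lower in females, with a median of 0.011 (-0.016 with quantile normalization and -0.056 with spike-in scaling). Their summed level was 23.1 in males and 22.6 in females. Most of that sum came from Tppp3 (band), at levels of 4.03 in males and 3.98 in females. Farthest from 0 were 0.62 for Dnah5 (band), -0.20 for Dnah11 (band) and 0.20 for Ccdc39. The ependymal member thus differed by less than its technical SD.

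Both members of the ventral midbrain were lower in females. Foxa2 had 10 spots, with intensities from 118 over a median of 131 to 146 in males and from 64.9 over 77.6 to 90.0 in females. No spot of the female pool reached the lowest spot of the male pool, on this scale or as a level. As for Foxc1, these spots are repeats on 1 array per pool. The levels of -4.83 and -5.25 differed by -0.41 ± 0.078 (SD, n = 10 spots), or 1.33-fold, and single spots ran from -0.50 to -0.23. In size 94.5% of all genes differed by less. With normexp the difference was -0.13, of the same sign.

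Foxa1, which acts with Foxa2 in dopamine neurons, was measured by 1 of its 2 probes. That spot (band) had an intensity of 105 in males and 52.8 in females, and its levels of -5.17 and -5.80 differed by -0.63 ± 0.15, or 1.55-fold. It lay in slide row 138, and in rows 120 to 139 13.7% of repeated spots were far, the most of any block. The SD of 0.15 comes from dim spots of the whole array, not of these rows. The other probe, farther along the transcript, did not stand well above background in males or females, with intensities of 7.21 and 6.29. The 1.5-fold count of Foxa1 did not hold under 3 settings. Its difference was -0.12 with normexp and -0.23 when both probes were averaged with no filter, and the gene had no value without the bands. The median of Foxa1 and Foxa2 was -0.52, and -0.12 with normexp.

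Genes listed for midbrain dopamine neurons were also lower in females by their median. Of 14 listed, 13 were measured, 3 higher and 10 lower, with a median of -0.19 (-0.13 with normexp, -0.12 without the bands). The summed level was 15.2 in males and 11.7 in females. Th (band) was the brightest of these genes and gave most to that sum, at levels of 3.11 in males and 2.69 in females. Dopamine neurons of the hypothalamus itself were not told apart from those of the midbrain. The largest differences were -0.70 for the homeobox gene En1 (band), -0.58 for Aldh1a1 and -0.54 for the dopamine transporter gene Slc6a3. Only En1 was past 1.5-fold. Genes of the hindbrain and its serotonin neurons, which neighbour the midbrain, had a median of -1.55, but 4 of the 5 measured of 8 listed lay in bands. The largest differences, all in bands, were -1.98 for Fev, -1.88 for Slc6a4 and -1.55 for Hoxa2. Their summed level was 0.113 in males and 0.0645 in females, and the gene left without the bands differed by 0.026. The part of midbrain tissue in the differences of Foxa1 and Foxa2 was not tested.

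**Figure D3:**
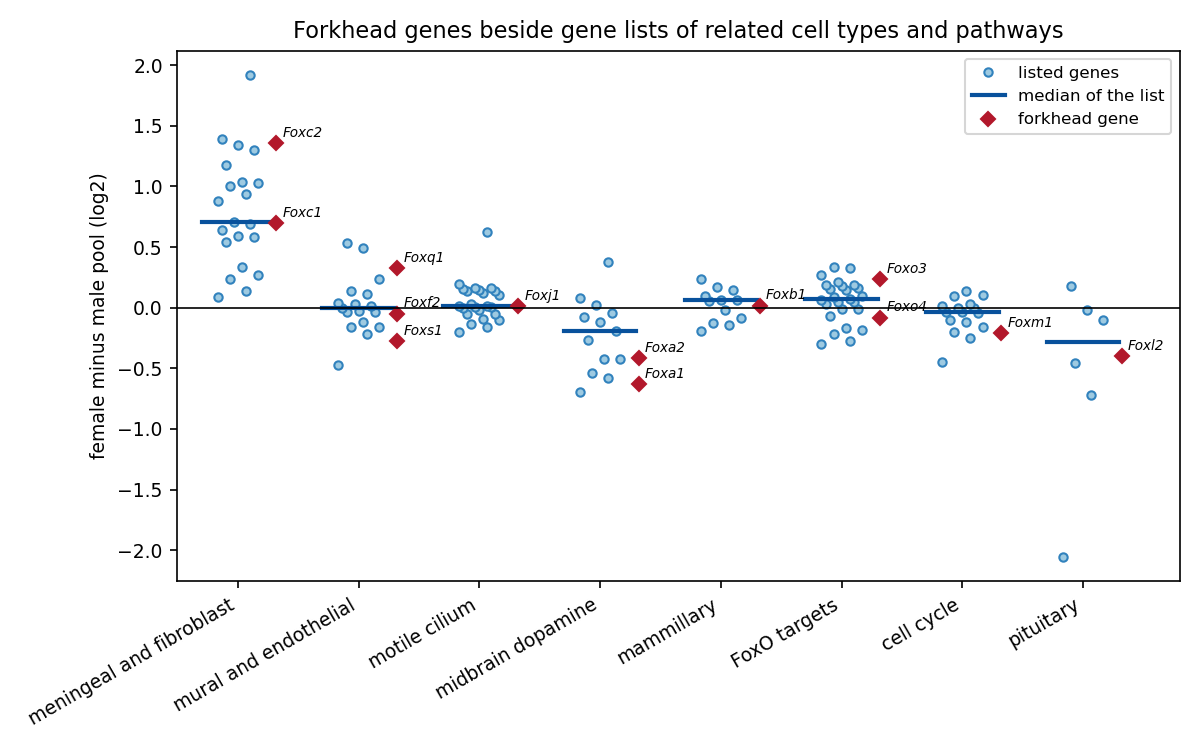
Difference between the pools (female minus male, log2, vertical axis) for the genes of 8 lists (blue points, with the median as a bar) and for the forkhead genes of the same role or pathway (red diamonds). The meningeal list lies above 0 for all 21 genes with Foxc1 and Foxc2 beside them, the midbrain dopamine list has a median of -0.19 with Foxa1 and Foxa2 below it, and the medians of the motile cilium and cell cycle lists lie near 0.

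The 4 neuronal members described here were higher in females, by 0.016 to 0.34, and none reached 1.5-fold. Scaled on spike-in spots, Foxb1 and Foxp4 turned lower, and Foxb1 did so with quantile normalization too. Foxp1, which acts in striatal and many other neurons, had an intensity of 11150 in males and 9739 in females. Its levels of 1.56 and 1.73 differed by 0.16 ± 0.053. Foxp4 had an intensity of 1016 in males and 805 in females and differed by 0.022 ± 0.066. For Foxp1 the intensity was thus lower in females and the level higher, since the female array was dimmer as a whole.

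Foxp2 and Foxb1 gave different values by probe. Foxp2, known for its part in vocal learning, had a probe at transcript position 7274 with intensities of 178 and 150 in males and females, and one at position 2397 with 45.8 and 53.3. The first differed by 0.11 and the second by 0.57, so the mean of 0.34 ± 0.11 rested on the dimmer probe. Foxb1, needed for the mammillary bodies to form, had a probe at position 1596 with intensities of 1324 and 1139 and one at position 419 (band) with 43.2 and 31.3. They differed by 0.14 and -0.11, with a mean of 0.016 ± 0.084.

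Genes of the region of Foxb1 lay near 0. Of 13 mammillary and premammillary genes, 12 were measured, 7 higher and 5 lower in females, with a median of 0.060 and a summed level of 10.1 in both pools. Most of that sum came from the peptide genes Cartpt and Tac1 (band). Their levels were 2.29 and 1.95 in males and 2.20 and 2.00 in females. The 3 farthest from 0 were 0.24 for Lhx6, -0.19 for Irx3 and 0.17 for Irx5. The median was -0.0074 when scaled on spike-in spots and -0.015 without the bands.

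**Figure D4:**
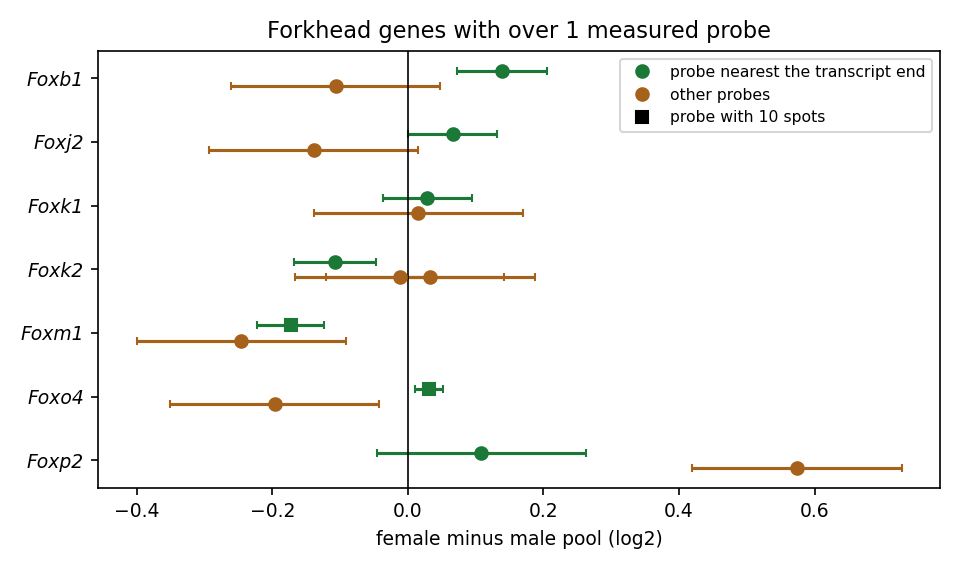
Difference between the pools (female minus male, log2, horizontal axis) for each measured probe of the 7 forkhead genes with over 1 measured probe. Green marks the probe nearest the transcript end, brown the others, squares the probes with 10 spots, and bars the technical SD of the mean over a probe's spots. Probes of Foxb1, Foxj2, Foxk2 and Foxo4 fall on both sides of 0, and the probes of Foxp2 lie farthest apart.

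Such disagreement was not limited to the neuronal members. Of the 7 members with over 1 measured probe, 4 had probes of opposite sign. The range of the difference between probes of 1 gene had a median of 0.20 over these members and 0.13 over the 2917 genes of the array with over 1 measured probe, whose 95th percentile was 0.54. The probes of Foxp2, 0.11 and 0.57, were 0.47 apart.

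The 9 broadly expressed members were Foxo3, Foxo4, the cell cycle factor Foxm1, Foxj2, Foxj3, Foxk1, Foxk2, Foxn2 and Foxn3. No probe was filed under the name Foxo1, so Foxo1 was not among the members. The 9 genes had a median of -0.036, with 3 higher and 6 lower in females and none past 1.5-fold. That median was 0.062 with normexp and 0.029 with the brightest probe of each gene. Foxo3, a factor of stress resistance and of cell survival, had an intensity of 96.0 in males and 88.2 in females and differed by 0.23 ± 0.15. Foxo4 had a probe with 10 spots, from 1496 over a median of 1705 to 1816 in males and from 1201 over 1394 to 1455 in females. It differed by 0.031 ± 0.094 (SD, n = 10 spots), from -0.15 to 0.19 at single spots, and the levels of the pools overlapped. Its other probe, with intensities of 49.9 and 34.0, differed by -0.20, so the gene mean was -0.083 ± 0.078. The sign for Foxo4 thus depended on the probe.

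Foxm1, which drives genes of mitosis, was lower in females on both probes. The probe with 10 spots ran from 204 over a median of 212 to 227 in males and from 134 over 145 to 170 in females. It differed by -0.17 ± 0.069 (SD, n = 10 spots), with single spots from -0.29 to -0.063. The intensities of the pools did not overlap, but the levels did. The other probe (band) differed by -0.25, and the gene mean was -0.21 ± 0.081, but with normexp it was 0.041. Foxn2 had an intensity of 39.8 in males and 26.3 in females and differed by -0.24 ± 0.15, with normexp by 0.086. Foxn3, a repressor in cell cycle control, had an intensity of 8063 in males and 5870 in females and differed by -0.10 ± 0.053. The others lay between -0.036 and 0.095, namely Foxj2, at -0.036, Foxj3 (band), at 0.095 (0.28 with normexp), Foxk1, at 0.022, and Foxk2, at -0.029. For Foxj2, Foxk1 and Foxk2 another setting turned the sign.

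Lists of genes downstream of these factors had medians near 0. Of 30 FoxO target genes, 25 were measured, 17 higher and 8 lower in females, with a median of 0.075 (0.0082 with spike-in scaling) and a summed level of 42.5 in males and 42.3 in females. Largest in size were 0.33 for the catalase gene Cat (band), 0.32 for Tsc22d3 (band) and -0.30 for the feeding peptide gene Agrp (band). The brightest gene of the list was Cpe (band), at a level of 4.05 in both pools. The list was not split by whether FoxO proteins raise or lower a gene, so its median is no measure of FoxO activity. Of 20 FoxM1 and cell cycle genes, 16 were measured, 5 higher and 11 lower, with a median of -0.032 (0.091 with normexp) and a summed level of 1.12 in males and 1.07 in females. The largest were -0.45 for the cyclin gene Ccnb2, -0.25 for Kif20a and -0.20 for Cdc25b. None of the genes of these lists was past 1.5-fold.

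Members best known from other organs were 12 genes, of which 7 were measured in both pools. Of these, 4 were higher and 3 lower in females, with a median of 0.13 and none past 1.5-fold. That median was 0.060 without the bands, 0.067 with spike-in scaling and 0.21 with normexp. Foxe1 (band), a thyroid factor, had an intensity of 7932 in males and 7871 in females, and its levels of 1.07 and 1.42 differed by 0.35 ± 0.053. Foxl2 (band), which specifies the ovary and acts in pituitary gonadotropes, had an intensity of 61.7 in males and 36.4 in females. It differed by -0.40 ± 0.15, and with normexp by 0.049. Foxp3 (band), the factor of regulatory T cells, had an intensity of 94.1 in males and 90.2 in females and differed by 0.30 ± 0.15. The rest were Foxd4, at 0.17, Foxi3, at 0.13, Foxb2, at -0.013 (0.17 with normexp), and Foxi1, at -0.049.

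The markers of those organs were set beside them. Of 9 pituitary genes, 6 were measured, 1 higher and 5 lower in females, with a median of -0.28 (-0.11 with normexp, -0.022 with no filter) and a summed level of 3.07 in males and 1.89 in females. The largest differences were -2.05 for Tshb, which encodes a subunit of thyroid-stimulating hormone, -0.72 for Cga (band) and -0.46 for Pou1f1. The genes of gonadotropes Lhb and Fshb (band) differed by -0.022 and 0.18. The part of pituitary cells in the difference of Foxl2 was not tested. All 5 markers of ovary, testis and thyroid were measured, 1 higher and 4 lower, with a median of -0.034 (0.063 with normexp) and a summed level of 0.697 in males and 0.656 in females. The largest were -0.37 for Pax8 (band), -0.094 for Inha and 0.039 for Amh (band). Of 9 regulatory T cell genes, 4 were measured, with a median of 0.057 (-0.010 with spike-in scaling), a summed level of 0.178 in males and 0.179 in females, and differences of -0.22 for Cd4, 0.15 for Cd3g and 0.10 for Ikzf2. Il2ra and Ctla4, which mark these cells with Foxp3, were not measured in both pools.

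The other 5 members had no difference measured in both pools. Foxn1 (band), the factor of the thymus epithelium, was well above background in males only, with intensities of 28.2 in males and 12.6 in females, and was at least 1.58-fold higher in males. That bound sets the male level against the level of the dim probe or the detection floor of the female array, whichever is higher. The spot of Foxn1 lay in slide row 128, in the same block of rows as that of Foxa1. Foxe3, a lens factor, was also well above background in males only, but its levels were -7.54 in males and -7.47 in females, so no fold is given. The probes filed under the names Foxa3, Foxh1 and Foxn4 were well above background in neither pool, with intensities from 3.68 to 7.91.

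A further 10 probes, for 9 genes, are described as forkhead in the files but carry a transcript number in place of a Fox name, so they were not members. Of these, 8 were measured and 0 were 1.5-fold apart. The probe for Foxf1, a factor of mesenchyme and vessels that lies near Foxc2 in the genome, differed by -0.14. That for Foxo6, a FoxO gene of neurons, differed by -0.12 (band), and a second probe for Foxl2 by -0.23, the same sign as the member. The probe of this kind for Foxn4 (band), measured in both pools unlike the member's own, differed by 0.43, and that for Foxr1 by -0.26. Probes for Foxd2, Foxd3 and Foxi2, all band, differed by -0.12, -0.031 and -0.031. Both probes for Foxl1 were above background in neither pool.

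Promoter sequence was at hand from RefSeq (GRCr8) for 20 of the 34 members. In the 250 bases before the start of the gene, the members had a median GC content of 66% against 52% over 27457 genes. Their median number of CG dinucleotides was 16.5 against 6, and 13 of the 20, or 65%, held at least 10, against 38.4% of all genes. The sequences of Foxc1 and Foxa2, the members with 10 spots whose levels did not overlap between the pools, are shown with each CG in capitals.
Foxc1: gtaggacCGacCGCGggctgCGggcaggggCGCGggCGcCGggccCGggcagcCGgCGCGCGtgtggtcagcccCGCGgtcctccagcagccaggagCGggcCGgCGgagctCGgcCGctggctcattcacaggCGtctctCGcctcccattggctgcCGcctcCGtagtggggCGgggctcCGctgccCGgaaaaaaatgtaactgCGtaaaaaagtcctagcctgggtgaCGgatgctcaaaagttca
Foxa2: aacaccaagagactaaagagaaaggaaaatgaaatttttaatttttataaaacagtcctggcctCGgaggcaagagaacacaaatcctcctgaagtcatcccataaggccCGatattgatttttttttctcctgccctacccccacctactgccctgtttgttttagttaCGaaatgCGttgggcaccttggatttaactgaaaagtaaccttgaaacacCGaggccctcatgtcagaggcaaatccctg
They lie at chr17:32844101-32844350 and chr3:155927509-155927758, both on the minus strand. That of Foxc1 was 70% GC with 29 CG dinucleotides, and that of Foxa2 was 42.8% GC with 5. The forkhead motifs TGTTTAC, then TGTTTGC and then TGTTTAT were searched on both strands, and matches of the same motif were counted without overlaps. At least 1 of them was found before 2 of the 20 members, or 10%, against 10.9% of all genes, and neither Foxc1 nor Foxa2 held one in this window.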

How the data were processed

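Hypothalamic RNA was measured on 2 Agilent 1-colour arrays, of 1 slide and 1 scan. Per the file headers, the deposited processed intensity of each spot is background-subtracted and corrected for a spatial trend by Feature Extraction 10.7.3.1, with build rn4; the submitters' processing notes name version 9.1, and which applies is not settled. The deposited value table, set against these files over 36348 spots, holds the same intensity divided by the 75th percentile and times 100, linear and uncentred, with medians of 29.0 (male) and 29.5 (female).

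Spots flagged as outliers were left out (286 and 292), and 84.9% and 84.2% of spots were well above background, with 0 saturated. Spots were averaged per probe, then measured probes per gene. Other probes were named by RefSeq accession (18719 of 30367), symbol (2045) or synonym (202), and 9357 kept the file's name. Bands are slide rows 20 to 39, 60 to 199, 400 to 459 and 520 to 532. They are blocks of 20 rows where over 2% of repeated spots lay over 4 robust SD from their probe's median.

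The members and lists were chosen with earlier results of these data known. All measured members are named except 1 that is not reported here but stays in the counts over all members, with the 3 largest differences of each list. With 1 array per group, differences are values without a test, and their precision is limited by that number. The calculation was tested on simulated data. Python 3.11.15, pandas 2.3.3 and limma 3.58.1 (normexp) were used. The alternatives were quantile and spike-in scaling, normexp, the deposited table, 2 ways to combine probes, 2 filters, outlier spots kept, and no bands.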

Additional observations from a re-analysis of the deposited data

How the results depend on the processing

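Every difference was recomputed under 10 alternatives. Of 283 values for single members, 281 stayed on the same side of 1.5-fold. The exceptions were Foxa1 at -0.12 with normexp and -0.23 with no filter on dim probes. The count of 281 was in part fixed beforehand. The deposited table holds the same intensities rescaled, and for a member on 1 spot several alternatives can only return the main value. The sign held throughout for 17 of 29 members, Foxa1 among them. Foxc1 ran from 0.63 to 0.72, Foxc2 from 0.95 to 1.36, Foxa2 from -0.48 to -0.13 and Foxp2 from 0.11 to 0.34. With normexp, 0 members were 1.5-fold higher in the male pool and 0 were 2-fold higher in the female pool, and the medians were -0.12 for the midbrain members, -0.38 for the hindbrain serotonin list and -0.11 for the pituitary list. With normexp some dim members came closer to 0 (Foxa2, Foxc2) and others went farther from it (Foxj3, Foxb2), and the cause was not tested. With no filter, 2 members were 2-fold higher in the female pool, the second being Foxa3, above background in neither pool, and those medians were -0.32, -1.20 and -0.022. Without the bands, 0 members were 1.5-fold higher in the male pool, since Foxa1 had no value, the median of the meningeal and vascular members was 0.72, and that of the hindbrain list was 0.026, from fewer genes. Foxe1, Foxj3, Foxl2, Foxp3, Foxq1 and Foxs1 had no value there either. The median of all genes was -0.067 with spike-in scaling and 0.050 with normexp. No paired analysis was possible because each group was 1 array. Most members were dim, and 20 of the 29 rested on 1 spot.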
